A study of Homo sapiens with 4 samples.

Results

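Citrate synthase (CS) and the other enzymes of the citric acid cycle were examined in HEK293 cells 2 h after lysophosphatidic acid (LPA) and in untreated cells. The set was CS, IDH2, IDH3A, OGDH, DLST, SUCLG1, SDHA, FH and MDH2, taken as every probe set that the array annotation gives to exactly 1 of these symbols. That rule found 15 probe sets of 8 genes among 41097 probe sets of 19775 genes with 1 symbol, and FH was not analysed here. CS had been chosen on these same arrays, by its lower signal after LPA and its small spread between replicate numbers. Every LPA minus untreated value of the set is therefore given as a description, with no test.

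HEK293 is a human embryonic kidney line transformed with adenovirus DNA. LPA is a lipid mediator of serum that cells sense through G protein-coupled receptors. The LPA group was 2 arrays, replicate numbers 1 and 2, of cells held overnight without serum and then given 1 µM LPA for 2 h. The untreated group was 2 arrays, also numbered 1 and 2, whose treatment is given as none. The letters Vc in their titles are not explained, and what those cells received in place of LPA is not stated. Nothing in the labels says that the replicates were separate cultures, so spreads and p-values cover only these arrays and may be technical. The labels also do not say that a replicate number marks a shared culture or day.

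The citric acid cycle runs in the mitochondrial matrix. CS opens it by joining acetyl-CoA to oxaloacetate, and the steps that follow oxidise the carbon and hand electrons to the respiratory chain, ending with the oxaloacetate that CS uses again. Citrate can also leave the mitochondrion to supply acetyl-CoA for lipid synthesis in the cytosol. All enzymes of the set are encoded in the nucleus, made in the cytosol and imported.

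The values were MAS5 signals, an intensity for each probe set and array on a linear scale. Signals of different probe sets are not on a common scale, so differences between arrays were taken within a probe set. Signals were set side by side across probe sets to sort genes by brightness and in the marker sums below. Such a sum is led by its brightest probe sets and does not describe each gene in it. All 9 genes chosen as HEK293 background (NEFL, NEFM, INA, VIM, KRT8, KRT18, CDH2, PAX2 and LIN28B) lay above the signal of 70.5 used as the filter on dim genes. Their summed signal was 38966 to 42764 on LPA arrays and 43422 to 50042 on untreated arrays, so the groups did not overlap and the LPA arrays were lower. Of 12 markers of cell types that the line should not hold, 4 did (PECAM1, HBB, COL1A1 and COL3A1), and the summed signal of the 12 was 1437 to 1550 on LPA arrays and 1415 to 1869 on untreated arrays. LPA replicate 2 stood apart: its maximum signal was 62508, against 93776 on LPA replicate 1 and 97077 and 104012 on the untreated arrays. Its ACTB 3′-to-5′ signal ratio was 18.8, against 13.6 on LPA replicate 1 and 13.4 and 12.6 on the untreated arrays. The same ratio for GAPDH was 1.35 and 1.38 on the LPA arrays, against 1.25 and 1.22 on the untreated arrays. Both ratios, which move with RNA integrity and labelling, were thus higher on both LPA arrays than on both untreated arrays, and their part in the differences below was not tested. Differences of the members are given by replicate number as well as by their mean.

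The stretches before the transcription starts of CS, MDH2 and SDHA are shown because these members carry different promoter motifs. They hold 250 bases up to the annotated start, from RefSeq (GRCh38.p14). Capitals mark every match, on either strand, to 4 motifs: the GC box GGGCGG bound by SP1, the CCAAT box, the ETS core CCGGAAG bound by GABPA, and the NRF1 motif (GCGCA, any base, then GCGC). GABPA and NRF1 are known regulators of nuclear genes for mitochondrial proteins.
CS, chr12:56300331-56300580, minus strand: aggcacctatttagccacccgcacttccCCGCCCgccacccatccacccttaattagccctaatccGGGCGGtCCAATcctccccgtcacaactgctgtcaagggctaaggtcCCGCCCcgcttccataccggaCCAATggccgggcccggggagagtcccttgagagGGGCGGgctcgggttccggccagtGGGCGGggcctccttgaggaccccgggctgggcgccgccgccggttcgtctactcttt
MDH2, chr7:76047856-76048105, plus strand: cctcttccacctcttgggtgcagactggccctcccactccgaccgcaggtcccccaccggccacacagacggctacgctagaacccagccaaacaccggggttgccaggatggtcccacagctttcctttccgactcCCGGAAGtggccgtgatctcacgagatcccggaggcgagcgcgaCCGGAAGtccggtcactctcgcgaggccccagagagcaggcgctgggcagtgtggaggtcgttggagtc
SDHA, chr5:218070-218319, plus strand: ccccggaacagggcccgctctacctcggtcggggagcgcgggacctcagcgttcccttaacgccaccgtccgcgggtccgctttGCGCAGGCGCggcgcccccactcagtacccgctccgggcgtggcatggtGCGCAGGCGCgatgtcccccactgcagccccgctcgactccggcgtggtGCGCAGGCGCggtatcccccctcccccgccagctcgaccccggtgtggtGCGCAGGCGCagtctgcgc

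The CS stretch held 5 GC boxes and 2 CCAAT boxes, with no match to the ETS core or the NRF1 motif. MDH2 held 2 ETS cores and no other match, and SDHA held 4 NRF1 motifs and no other match. None of the matches overlapped another. Over the 35116 promoter windows of the table, in which some genes have several, a GC box was present in 42.6%, a CCAAT box in 32%, an ETS core in 8.52% and an NRF1 motif in 5.07%. Among the 14253 windows of genes tested here the shares were 63.7%, 33.1%, 14% and 8.88%. Of 7 measured members with a window, 3 held a GC box (CS, IDH3A and DLST), 1 a CCAAT box (CS), 2 an ETS core (DLST and MDH2) and 2 an NRF1 motif (IDH3A and SDHA). The IDH2 window, chr15:90100622-90100871 on the minus strand, held no match. It lies inside the annotated gene, chr15:90083045-90102468, not before its outer end. The CS window was 67.6% G and C, where the median of tested genes was 64.8%. A match is a run of letters and does not show that a factor binds there, and no match says only that these letters are not in this window.

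The CS gene lies at chr12:56271699-56300330 and was measured by 1 probe set, 208660_at. Its signal was 9119 and 8464 on LPA replicates 1 and 2, against 13114 and 15873 on untreated replicates 1 and 2. Both LPA values lay below both untreated values, and the gap between the groups was wider than the gap within either. The means were 8791 ± 463 after LPA and 14494 ± 1952 without it (SD, 2 arrays each). The log2 difference, LPA minus untreated, taken on log2(signal + 1), was -0.52 in replicate number 1 and -0.91 in number 2, with a mean of -0.72 ± 0.16 (SE from limma). The LPA signal was thus 0.695 times the untreated signal in number 1 and 0.533 times in number 2. Between arrays of the same group CS differed by less: LPA replicate 2 minus 1 was -0.11 and untreated replicate 2 minus 1 was 0.28 on the log2 scale. A small spread between the numbers was part of its choice, so these small gaps are no result of their own. Arrays of bulk RNA do not separate fewer transcripts in each cell from fewer cells carrying them. Of 11865 genes past the filter, 143 had a more negative mean difference than CS.

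**Figure D1:**
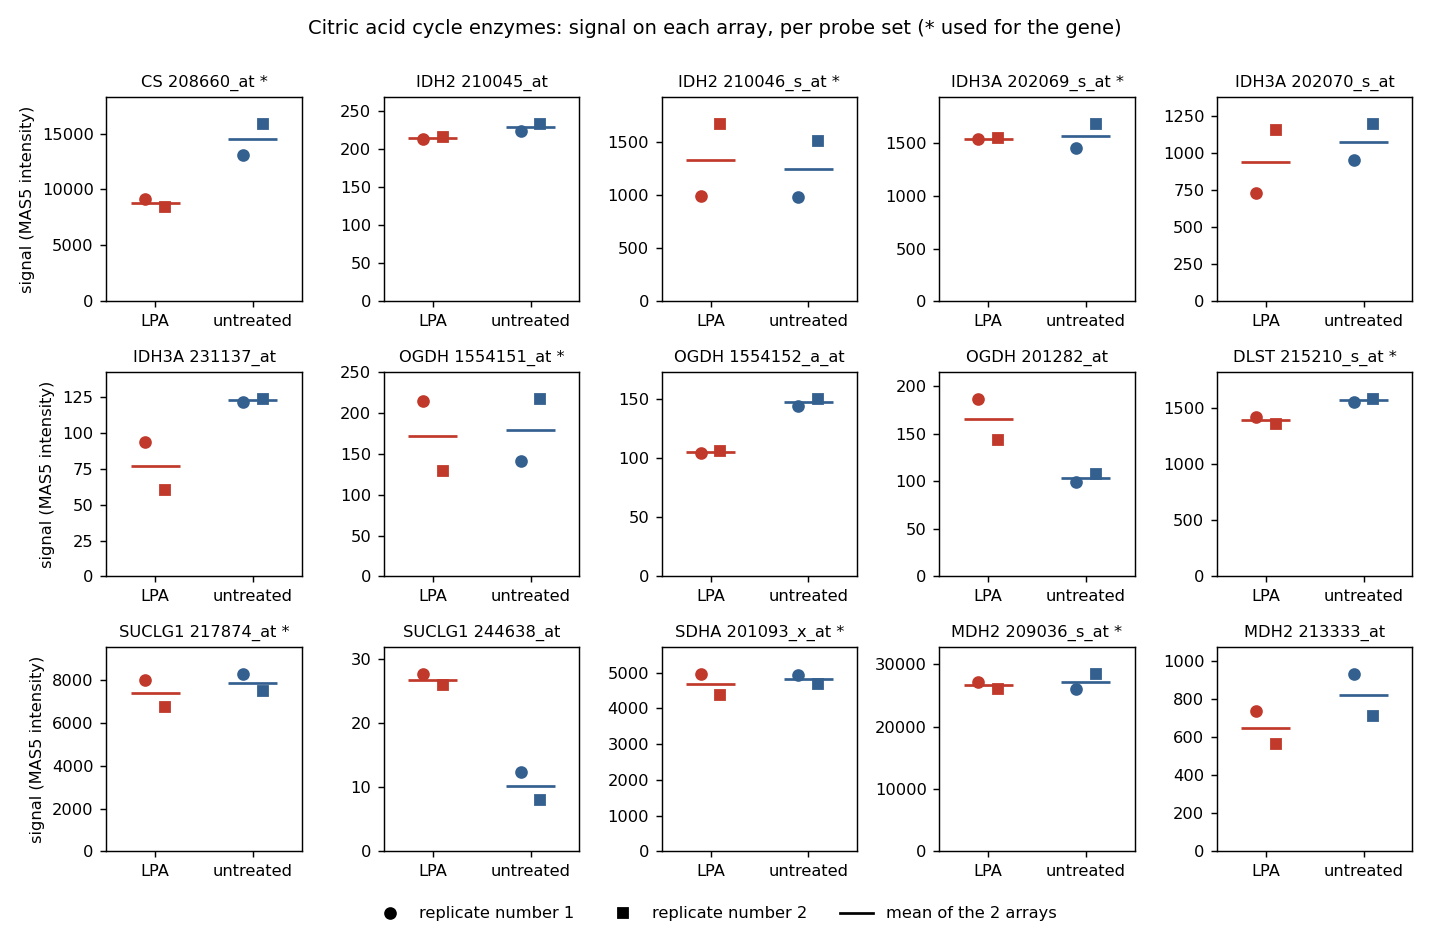
MAS5 signal of each of the 15 probe sets of the set on each array, with a linear axis that starts at 0 in every panel. Circles are replicate number 1, squares number 2, and horizontal lines the mean of 2 arrays, with LPA at the left and untreated at the right. CS read 9119 and 8464 after LPA, against 13114 and 15873 in untreated cells.

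The next enzymes of the cycle oxidise isocitrate. IDH2, the NADP-dependent mitochondrial isocitrate dehydrogenase, read 994 and 1673 after LPA, against 985 and 1513 in untreated cells at its brighter probe set (210046_s_at). Number 2 was high and number 1 low in both groups, the groups overlapped, and the log2 difference was 0.079. Its dimmer probe set (210045_at) read 213 and 216 after LPA, against 223 and 233 in untreated cells, without overlap and with a difference of -0.089. IDH3A, the catalytic subunit of the NAD-dependent isocitrate dehydrogenase, read 1538 and 1548 after LPA, against 1459 and 1685 in untreated cells at 202069_s_at, and both LPA values lay between the untreated ones. Its probe set 202070_s_at also overlapped, with 728 and 1154 against 956 and 1198. The dimmest, 231137_at, read 93.7 and 59.9 after LPA, against 122 and 124 in untreated cells, a difference of -0.70 without overlap, in which LPA replicate 2 lay below the filter's signal.

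The oxoglutarate dehydrogenase complex makes succinyl-CoA. Its oxoglutarate-decarboxylating subunit OGDH had 3 dim probe sets that went different ways. The brightest, 1554151_at, read 215 and 129 after LPA, against 141 and 217 in untreated cells, a difference of 0.61 in number 1 and -0.75 in number 2. Probe set 1554152_a_at read 104 and 106 after LPA, against 144 and 150 in untreated cells, so both LPA values were lower. Probe set 201282_at read 187 and 144 after LPA, against 99.7 and 108 in untreated cells, so both were higher. The direction for OGDH therefore depended on the probe set. DLST, the succinyltransferase of the same complex, read 1426 and 1358 after LPA, against 1561 and 1585 in untreated cells. Its groups did not overlap, and the difference was -0.13 in number 1 and -0.22 in number 2. DLST has a transcribed pseudogene, DLSTP1, whose share of the signal is not known.

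SUCLG1, the alpha subunit of succinyl-CoA ligase, read 8010 and 6745 after LPA, against 8286 and 7481 in untreated cells at 217874_at. These groups overlapped, and each LPA value was below the untreated value of the same number, with log2 differences of -0.049 and -0.15. Its other probe set, 244638_at, was the only one of the 15 below the filter, with 27.7 and 25.9 after LPA, against 12.4 and 7.96 in untreated cells. Such signals are not shown to be above background. SDHA, the flavoprotein subunit of succinate dehydrogenase, which is also complex II of the respiratory chain, read 4963 and 4385 after LPA, against 4932 and 4694 in untreated cells. Its probe set is of the kind marked as able to cross-hybridise, and SDHA has transcribed pseudogenes, so its value is uncertain. MDH2, the mitochondrial malate dehydrogenase that regenerates oxaloacetate, read 27129 and 26023 after LPA, against 25978 and 28423 in untreated cells at 209036_s_at. The LPA values lay between the untreated ones, with a difference of -0.032 that became 0.12 under quantile normalization and 0.11 under cyclic loess. Its dimmer probe set 213333_at read 737 and 564 after LPA, against 934 and 712 in untreated cells, lower by 0.34 in each number yet overlapping between groups.

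Set beside the other steps, CS, which had been picked for its lower signal after LPA, had the most negative mean difference. Taking the brightest probe set of each gene, the other 7 measured members ranged from -0.18 (DLST) to 0.079 (IDH2), with a median of -0.045, where the median of all 11865 genes tested was 0.0092. That median of the 7 was 0.014 in number 1 and -0.13 in number 2, where all genes had -0.0014 and 0.025. CS minus that median was -0.54 in number 1, -0.78 in number 2 and -0.67 on the mean. In number 1 the next lowest member after CS was DLST at -0.13, and in number 2 it was OGDH at -0.75. All 8 measured genes passed the filter. The mean difference was below 0 for 7 of them, beside 48.1% of all genes tested, a count that depended on scaling: MDH2 turned positive under median centring, cyclic loess and quantile normalization, and IDH3A under median centring. It also depended on the replicate number: 3 of 8 were below 0 in number 1, beside 50.2% of all genes, and 7 of 8 in number 2, which holds the LPA array that stood apart, beside 46.7%. Both LPA values lay below both untreated values for 2 of 8 (CS and DLST), beside 12.5% of all genes tested, and above them for 0 of 8, beside 14.4%. The difference was negative in both replicate numbers for 3 of 8 (CS, DLST and SUCLG1), beside 25.2% of all genes. Counted by probe set, both LPA values were below both untreated values at 5 of 15 and above them at 2 of 15, where the shares over all probe sets with 1 symbol were 15.8% and 15%. Of the 5 genes with several probe sets, 3 had mean differences of both signs.

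Genes of similar brightness gave the scale for these differences, because the spread between arrays depends on signal and bright genes were lower on LPA replicate 2. For CS, the 500 tested genes nearest in mean log2 signal spanned 7786 to 16258. In number 1 their median difference was -0.0087, with the 5th and 95th percentiles at -0.20 and 0.21, and CS was at -0.52. In number 2 their median was -0.13, with percentiles at -0.39 and 0.20, and CS was at -0.91. In each number 0 of the 500 were lower than CS. Relative to the median of its neighbours, CS stood at -0.52 in number 1 and -0.78 in number 2. Between the 2 untreated arrays the CS value of 0.28 lay within the 5th to 95th percentile of the same genes, -0.38 to 0.39, and between the LPA arrays its -0.11 lay within -0.47 to 0.29. These are positions on 4 arrays, not a test. Because CS had been picked for its lower signal after LPA, its low place among these genes is no result of its own. It had also been picked for a small spread between the numbers, so neither is its place within the same-group ranges.

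**Figure D2:**
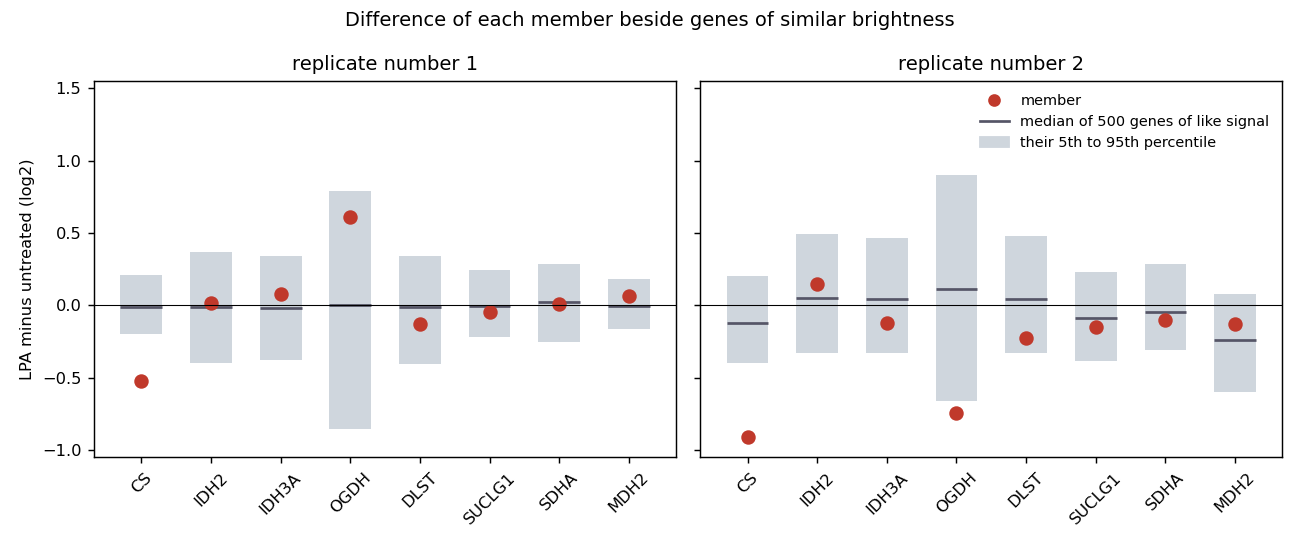
Log2 difference, LPA minus untreated, of each measured member (red points) in replicate numbers 1 and 2. Grey bars run from the 5th to the 95th percentile of the 500 tested genes nearest in mean signal to that member, with a dark line at their median. CS lay below its bar in both numbers, and OGDH lay below its bar in number 2 only.

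Among the other members, OGDH lay outside the 5th to 95th percentile of its neighbours in number 2 (-0.75, with percentiles -0.66 and 0.90) and inside it in number 1 (0.61, with percentiles -0.86 and 0.79). IDH2, IDH3A, DLST, SUCLG1, SDHA and MDH2 lay inside in both numbers. MDH2 sat at the bright end of the arrays, where its 500 neighbours had a median of -0.24 in number 2 and of -0.0027 in number 1. Its own -0.13 in number 2 was above the median of those genes by 0.11.

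**Figure D3:**
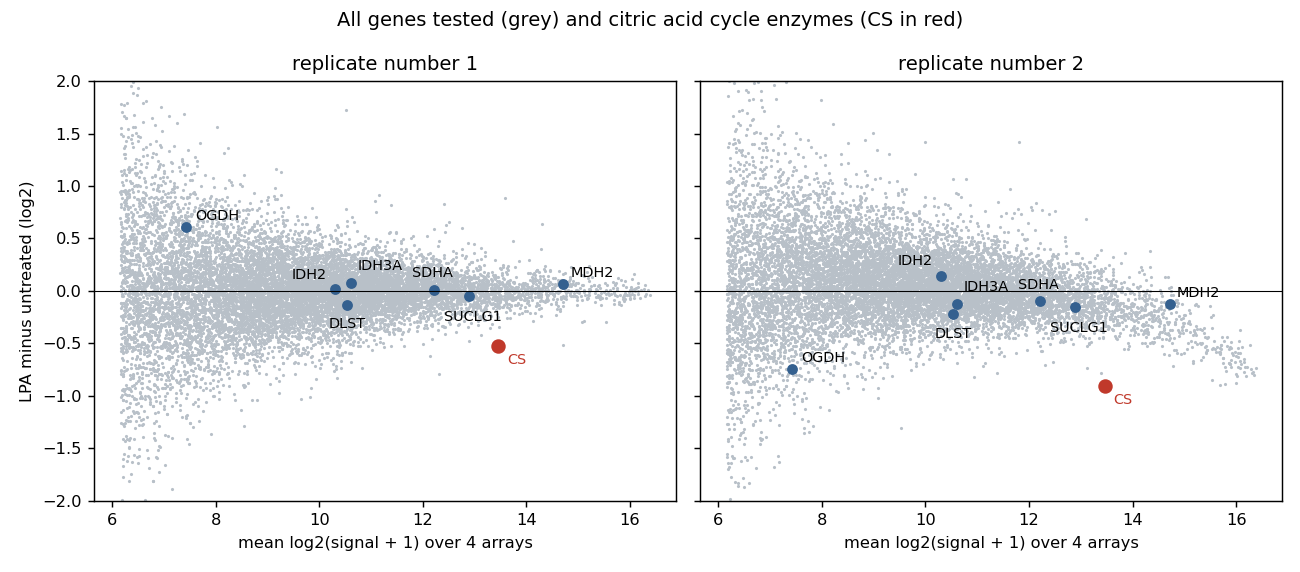
Log2 difference, LPA minus untreated, against mean log2(signal + 1) over the 4 arrays for all genes tested (grey), with CS in red and the other measured members in blue. The vertical axis stops at -2 and 2, which leaves out 34 genes in number 1 and 46 in number 2. CS, with differences of -0.52 in number 1 and -0.91 in number 2, sits below the band of equally bright genes. That band bends downward at the bright end in number 2.

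How the members other than CS differed between replicate numbers is a comparison that did not choose them. It was tested as number 2 minus number 1 with the treatment as a term, in limma over all 11865 genes. In that comparison 5.79% of genes were higher and 5.86% lower at an adjusted p under 0.05, and 23.7% had an unadjusted p under 0.05. Of the 7 members other than CS, 1 passed. IDH2 (210046_s_at) was higher in number 2 by 0.68 ± 0.13 (SE), with 1673 against 994 after LPA and 1513 against 985 in untreated cells (limma adjusted p = 0.000779). Both number 2 arrays lay above both number 1 arrays. The call was lost without the intensity trend in the variance model (limma adjusted p = 0.296, where 0 genes passed in all and 1822 had an unadjusted p under 0.05) and with the mean of both IDH2 probe sets (difference 0.36, limma adjusted p = 0.326). The dimmer IDH2 probe set differed between numbers by 0.025 after LPA and 0.061 in untreated cells. The other 6 ranged from -0.20 to 0.11, with limma adjusted p from 0.343 to 0.955. CS differed by 0.084 ± 0.14 between the numbers, given with no test because CS had been picked for a small spread between them. It had also been chosen by the other contrast of the same 4 arrays, whose residual spread this test shares.

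Other genes of the pathway were taken from 6 lists of enzymes, transporters and regulators. Of 73 genes, 65 passed the filter. In the comparison of LPA with untreated cells 0 of the 65 passed limma's adjusted threshold of 0.05 in either direction, and 1 had an unadjusted p under 0.05. Among all 11865 genes 0% passed in either direction and 1.74% had an unadjusted limma p under 0.05. The difference was below 0 for 34 of the 65 and above it for 31, with a median of -0.0084. Both LPA values lay below both untreated values for 12 of the 65, beside 12.5% of all genes tested, and above them for 9, beside 14.4%. The genes named from each list were picked for small p, so that they do not overlap between groups is no result of its own. The 3 genes of smallest p in each list are named, 18 in all. Of these, 12 had other probe sets above the filter. For 7 genes at least 1 of those probe sets had the opposite sign: SDHC, IDH3B, PDHA1, ELOVL6, SLC25A11, TOMM22 and HSPD1.

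**Figure D4:**
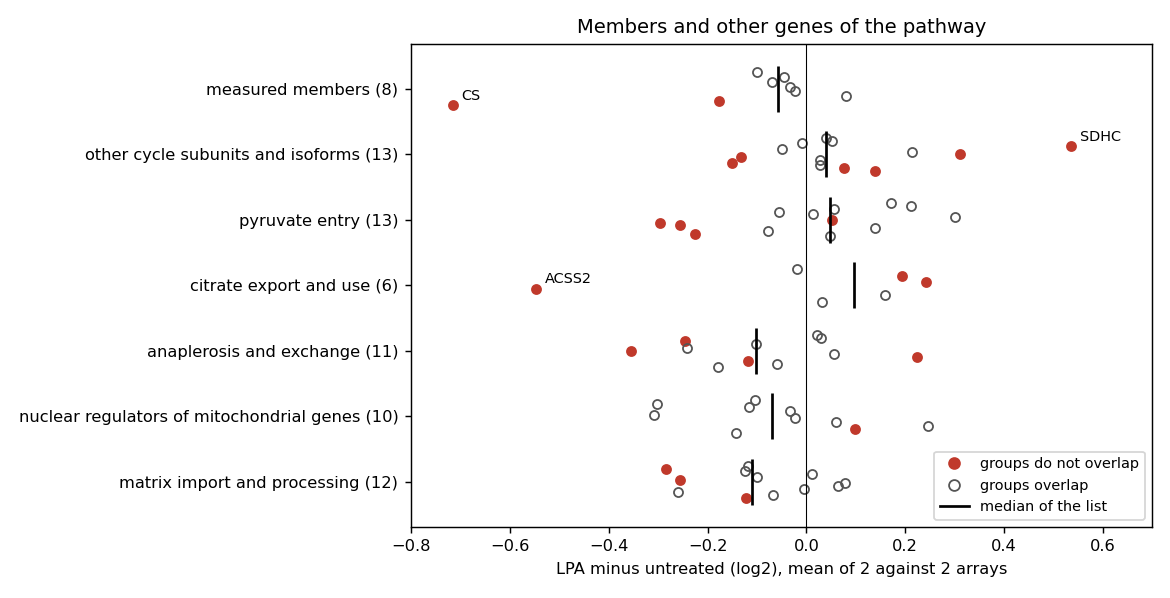
Log2 difference, LPA minus untreated, of the 8 measured members and of the tested genes of each of the 6 lists, with the number of genes in brackets. Filled red points are genes whose LPA and untreated values did not overlap, open points overlapped, and vertical lines are medians. CS at -0.72 was the lowest point and SDHC at 0.53 the highest.

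Other cycle subunits and isoforms had 13 tested genes, of which 4 were below 0 and 9 above, with a median of 0.039 (0.13 in number 1 and -0.041 in number 2) and 0 past the threshold. SDHC, a membrane anchor of succinate dehydrogenase, read 3297 and 3485 after LPA, against 2574 and 2128 in untreated cells at its brightest probe set, a difference of 0.53 ± 0.17 (SE) without overlap (limma adjusted p = 0.9999). It was the gene with an unadjusted p under 0.05. Its other 6 probe sets above the filter did not agree in sign, since 4 had a negative difference. OGDHL, a relative of OGDH, read 413 and 451 after LPA, against 350 and 346 in untreated cells. IDH3B, a further subunit of the NAD-dependent isocitrate dehydrogenase, read 5247 and 5078 after LPA, against 5702 and 5754 in untreated cells. Its probe set, like that of SDHA, is of the kind marked as able to cross-hybridise. Neither OGDHL nor IDH3B overlapped between groups. In the list 2 lower and 4 higher genes of the 13 did not overlap, beside 12.5% and 14.4% of all genes tested.

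Pyruvate entry, the step that makes acetyl-CoA for CS, had 13 tested genes, 5 below 0 and 8 above, with a median of 0.047 (-0.020 in number 1 and 0.022 in number 2) and 0 past the threshold. Without overlap were 3 lower genes and 1 higher gene of the 13, beside 12.5% and 14.4% of all genes tested. The 3 lower ones are those named here. PDHB and PDHA1 are the subunits of pyruvate dehydrogenase E1. PDHB read 15152 and 11527 after LPA, against 15552 and 16943 in untreated cells. PDHA1 read 9523 and 8810 after LPA, against 12129 and 9857 in untreated cells, but its other 2 probe sets above the filter had differences of the opposite sign. MPC1, a subunit of the mitochondrial pyruvate carrier, read 7494 and 8146 after LPA, against 8720 and 9568 in untreated cells. These are bright probe sets, and the PDHB difference was -0.038 in number 1 and -0.56 in number 2.

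Citrate export and use had 6 tested genes, 2 below 0 and 4 above, with a median of 0.096 (0.15 in number 1 and 0.057 in number 2) and 0 past the threshold. ACSS2, which makes cytosolic acetyl-CoA from acetate, read 258 and 197 after LPA, against 325 and 336 in untreated cells (-0.55 ± 0.30, SE). The fatty acid elongase ELOVL6 read 2171 and 2351 after LPA, against 1890 and 1929 in untreated cells, and fatty acid synthase (FASN) read 1118 and 1226 against 951 and 1102. These 3 are the genes of the list without overlap, 1 lower and 2 higher of 6, beside 12.5% and 14.4% of all genes tested. Both of the other ELOVL6 probe sets above the filter had the opposite sign.

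Anaplerosis and exchange, the reactions and carriers that refill or drain the cycle, had 11 tested genes, 7 below 0 and 4 above, with a median of -0.10 (-0.048 in number 1 and -0.055 in number 2) and 0 past the threshold. Malic enzyme ME1 read 2124 and 2194 after LPA, against 1861 and 1836 in untreated cells. The oxoglutarate carrier SLC25A11 read 1611 and 1321 after LPA, against 1681 and 1778 in untreated cells, and glutamate dehydrogenase GLUD1 read 6095 and 7437 against 7079 and 8213. ME1 and SLC25A11 did not overlap between groups and GLUD1 did. In the list 3 lower genes and 1 higher gene of the 11 did not overlap, beside 12.5% and 14.4% of all genes tested. At the other SLC25A11 probe set above the filter the groups overlapped, and the difference was 0.070.

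Nuclear regulators of mitochondrial genes had 10 tested genes, 7 below 0 and 3 above, with a median of -0.069 (-0.042 in number 1 and -0.021 in number 2) and 0 past the threshold. The mitochondrial transcription factor TFB2M read 3118 and 2044 after LPA, against 3172 and 3051 in untreated cells. The coactivator PPRC1 read 1474 and 903 after LPA, against 2049 and 996 in untreated cells, so the numbers differed more than the groups. GABPB1, the partner of GABPA, read 629 and 510 after LPA, against 644 and 354 in untreated cells. All of these overlapped between groups. The GABPB1 probe set, like that of SDHA, is of the kind marked as able to cross-hybridise.

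Matrix import and processing had 12 tested genes, 9 below 0 and 3 above, with a median of -0.11 that was 0.015 in number 1 and -0.22 in number 2, and 0 past the threshold. TOMM22, a receptor of the outer membrane import pore, read 7753 and 7019 after LPA, against 9095 and 8860 in untreated cells. PMPCB, a subunit of the peptidase that removes import signals, read 11293 and 9056 after LPA, against 11862 and 12283 in untreated cells. The chaperonin HSPD1 read 76782 and 48356 after LPA, against 75569 and 70506 in untreated cells, with the low value on the array that had the low maximum. The share of that array in these differences was not tested.

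The 5 tested genes whose pattern over the 4 arrays was most like that of CS, by Euclidean distance between log2 values centred on each gene's mean, were MYOM3 (distance 0.12), RAC3 (0.15), LAMTOR2 (0.16), CEBPA-DT (0.16) and PRUNE2 (0.18). RAC3, a small GTPase, read 732 and 731 after LPA, against 1007 and 1199 in untreated cells. LAMTOR2, a subunit of the Ragulator complex on lysosomes, read 1837 and 1724 after LPA, against 2611 and 2828 in untreated cells. MYOM3 read 60.6 and 60.6 after LPA, below the filter's signal, against 84.4 and 109 in untreated cells. They were chosen for this likeness, so their low LPA values are not a result of their own.

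The 8 tested genes nearest to CS on chromosome 12, 4 on either side, had differences of both signs, 5 below 0 and 3 above. Both LPA values were below both untreated values for 3 of the 8, beside 12.5% of all genes tested, and above them for 1 of the 8, beside 14.4%. ANKRD52 read 183 and 133 after LPA, against 240 and 292 in untreated cells. COQ10A, a coenzyme Q-binding protein whose gene ends at 56270966, just below the lower end of CS, read 888 and 748 after LPA, against 1173 and 1009 in untreated cells. CNPY2, the nearest tested gene on the other side, starting at 56309844, read 10534 and 9531 after LPA, against 13403 and 12051 in untreated cells. The next gene, PAN2, a deadenylase subunit, read 479 and 472 after LPA, against 430 and 446 in untreated cells. The remaining neighbours RNF41, NABP2, IL23A and TIMELESS overlapped between groups, with differences from -0.23 (NABP2) to 0.14 (IL23A).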

How the data were processed

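RNA of 2 LPA and 2 untreated HEK293 samples was measured on 4 Affymetrix arrays. The deposited intensity values were made by the authors with MAS5, per the submitters' processing notes, which here name no version, background setting or scaling target. Detection calls were not used. After trimming 2% at each end every array had a mean of 500.1, so the arrays had been scaled before deposit. Of 54675 probe sets, 41097 had 1 gene symbol, 1801 several and 11777 none. A gene was represented by its brightest probe set. The filter on dim genes was set at the 40th percentile of the mean of log2(intensity + 1), equal to a signal of 70.5, and 11865 genes passed it.

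The groups were compared with limma 3.58.1 in R 4.3.3, using lmFit and then eBayes with a trend on intensity. Tests were two-sided, and p-values were adjusted by Benjamini and Hochberg's method over every gene tested. SE is limma's moderated value, with a median of 0.244. The fit was tested on simulated data with the same noise for every gene, whereas the spread on these arrays depends on signal. Precision is limited by the number of arrays.

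The members and lists were chosen with earlier results of these data known. Named were all members, the 3 genes of smallest unadjusted p in each list, the 5 genes most like CS and 8 chromosomal neighbours. Protein sequences were not used here. Alternatives covered normalization, pseudocount, filter, probe set choice, variance model, replicate block and leaving out each array.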

Additional observations from a re-analysis of the deposited data

Results flagged for a closer look

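A probe set outside the rule, 230077_at, is annotated to SDHA together with pseudogenes of it and so entered no comparison. It read 296 and 333 on LPA replicates 1 and 2, against 225 and 197 on untreated replicates 1 and 2. It is listed because it had been left out of the comparisons, whatever its signal or difference. Its log2 difference, LPA minus untreated, was 0.57 (0.39 in number 1 and 0.75 in number 2). Which of the annotated transcripts it measured is not known.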

How the results depend on the processing

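The CS difference was negative under all 9 alternatives tried for its value, from -0.85 to -0.58. Both limits came from leaving out an array (without untreated replicate 1 and without untreated replicate 2). Leaving out an array could not change the sign, because both LPA values of CS lay below both untreated values. Taking the mean of all probe sets could not change CS, which has 1 probe set. CS minus the median of the other measured members ranged from -0.73 to -0.59, and that median itself from -0.13 to 0.032, positive only without untreated replicate 2 among the 9 alternatives. CS minus the median of equally bright genes was -0.66 to -0.64 with 200 or 1000 neighbours or after quantile normalization. In the limma comparison of LPA with untreated cells, 0 genes passed and 207 had an unadjusted p under 0.05. Leaving out 1 array gave 0 to 3 genes. With the replicate block, the replicate number as a term, 32 passed, and 4 with the replicate block and quantile normalization. Of the 65 pathway genes 1 passed with the replicate block, SDHC (limma adjusted p = 0.0324), which had adjusted p = 0.169 with quantile normalization added. The deviations of same-numbered arrays from their group means correlated at r = 0.33 across genes, but the samples share only a number in the labels. For number 2 minus number 1, 1382 genes passed, against 445 with no treatment term, 168 with the mean of all probe sets and 0 without the intensity trend. Taking the mean of all probe sets moved the LPA difference of SUCLG1 to 0.62 and of IDH3A to -0.32. The comparison of protein features was not run. With 2 arrays in each group and no detection calls, dim probe sets such as those of OGDH are not shown to be above background.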
